A study of Mus musculus with 12 samples.

Results

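Long intergenic noncoding RNAs (lincRNAs) are transcripts that lie between protein-coding genes and carry no long open reading frame. The lincRNAs described here were the rows typed as lincRNA in the count table whose mean level over all 12 kidney libraries was at least 1 CPM (the count of a row over the column sum of its library, on the usual CPM scale), after Gas5, Neat1, Malat1 and every symbol starting with Snhg were left out. In all, 321 of 2810 lincRNA rows, in a table of 42748 rows, met this rule. A further 1032 lincRNA rows had no count in any library, 1451 had counts but stayed under 1 CPM, and 6 at or above 1 CPM were left out by name. The levels that chose the members are given as description. Members just inside the threshold were 4930544I03Rik, A930038B10Rik and Gm37233 at 1.01, 1.02 and 1.03 CPM, and the rows just outside it were 5033430I15Rik, Gm26594 and Gm27042 at 0.994, 0.993 and 0.982 CPM. All 321 members were found by identifier in the GENCODE M21 annotation, where 312 were still typed as lincRNA, 4 as antisense, 4 as bidirectional promoter lncRNA and 1 as processed transcript. RefSeq gives some members the name of another gene, with D930016D06Rik as Thoc2l, Gm38399 as Nav1, 4930516B21Rik as Acvr2b and 4732487G21Rik as Gpatch2l. The symbols Tmem61 and Lsmem2 have the form used for membrane protein genes. Whether members of this kind are noncoding was not tested.

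LincRNAs are transcribed by RNA polymerase II, and are usually capped, spliced and polyadenylated like messenger RNAs, at lower levels and in fewer tissues. Some act on the transcription of genes beside them, some act elsewhere in the nucleus or on mature microRNAs in the cytoplasm, and some are mainly known as precursors from which microRNAs are cut. For most mouse lincRNAs no function is known, and a Gm number or a Rik clone name is then all that the annotation gives.

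Kidneys of adult mice were compared across 2 genotypes and 2 treatments, with 3 libraries in each of 4 groups. The groups were Ybx3 knockout after renal ischemia/reperfusion injury (KO IRI), Ybx3 knockout control (KO control), wild type after the injury (WT IRI) and wild-type control (WT control). In IRI, blood flow to the kidney is interrupted and then restored, and the product of Ybx3, DNA-binding protein A, is a Y-box protein with a cold shock domain. The comparisons are therefore IRI against control within a genotype and knockout against wild type within a condition. The sources used here do not give the strain, the sex of the mice, the time after injury or the way the deletion was made. The labels name separate samples and say no more of their origin, so each p-value reflects the spread among these samples alone.

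Library totals ran from 39074224 to 67948710 counts. Ybx3 itself stood at 13.6 to 18.6 CPM in KO IRI and 9.28 to 12.9 CPM in KO control kidneys, against 53.9 to 104.5 CPM in WT IRI and 30.2 to 36.9 CPM in WT control kidneys, with no overlap between the genotypes in either condition. All 8 kidney tubule markers examined were detected in every library. Summed over 5 markers of adrenal cortex, KO IRI replicates 1 and 2 had 271.7 and 1397 CPM, and the other 10 libraries had 5.15 to 7.49 CPM. Summed over 4 Y-linked genes, 7 libraries had 33.2 to 307.1 CPM and 5 had 1.14 to 1.79 CPM, and these 5 were KO IRI replicate 3, KO control replicate 1 and all WT control libraries. In wild type the Y-linked sum therefore differed between IRI and control in every library, so Y-linked level and IRI cannot be told apart there. Xist was listed at 0 in every library.

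Most members were weakly expressed. Of the 321, 250 averaged 1 to 10 CPM, 64 averaged 10 to 100 CPM and 7 averaged 100 CPM or more, and 266 reached 1 CPM in the mean of each of the 4 groups. The member at the top of the range, Gm26917, averaged 23802 CPM, and the next, Gm42418, averaged 574 CPM. Both sit side by side on chromosome 17 at a locus that overlaps ribosomal RNA sequence, and RefSeq names Gm42418 as the 18S-related sequence Rn18s-rs5. With Gm26870 they were the 3 members on a list of such loci, and ribosomal RNA had been depleted before sequencing. Summed over all 321 members, the level was 28873.7 to 35173.8 CPM in KO IRI and 22317.1 to 27221.3 CPM in KO control kidneys, against 30571.3 to 35901.3 CPM in WT IRI and 20592.9 to 22736.7 CPM in WT control kidneys. Without the 3 loci the sum of the remaining 318 was 3460.3 to 3796.5 CPM in KO IRI and 3875.2 to 3975.1 CPM in KO control kidneys, against 3530.9 to 4344.6 CPM in WT IRI and 3435.2 to 3591.1 CPM in WT control kidneys. Without these loci every KO IRI library was below every KO control library, while the wild-type groups overlapped. Gm26917 alone had 28346, 30408 and 24944 CPM in KO IRI and 18175, 21662 and 22725 CPM in KO control kidneys, and 31864, 25774 and 27854 CPM in WT IRI, against 16725, 18218 and 18929 CPM in WT control kidneys. It was called higher in wild type at 0.67 ± 0.19 on the log2 scale (edgeR adjusted p = 0.0304) and was not called in knockout at 0.42 ± 0.19 (edgeR adjusted p = 0.212).

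Per kilobase of annotated exon, the most abundant members outside that locus were Gm26561 at 145 CPM per kilobase, Gm10076 at 105 CPM per kilobase, Gm20732 at 81.3 CPM per kilobase and Lncpint at 64.4 CPM per kilobase. Lncpint is a transcript known to be induced by p53 and to host a microRNA in human. It had 423, 457 and 338 CPM in KO IRI and 511, 433 and 503 CPM in KO control kidneys, against 412, 329 and 1097 CPM in WT IRI and 374, 462 and 431 CPM in WT control kidneys. WT IRI replicate 3 stood apart from all other libraries for Lncpint, and IRI did not pass the test in either genotype. The abundant members 2610035D17Rik and 5031425E22Rik averaged 127 CPM each and were not called either. Among abundant members with little spread, 6030443J06Rik had 55.5 to 79.4 CPM over the 12 libraries and 2900097C17Rik had 51.1 to 66.3 CPM, and neither was called. The median member had 3 exons in its longest model and 1874 bases of exon. Only 16 members had a single exon, and 106 members shared some exon sequence with another gene, so that reads could be split, lost or counted for the wrong gene where counting ignored the strand. In Gm26561, 87.0% of the exon sequence lies under exons of genes on the opposite strand, and in Gm20732 44.8% lies under exons of genes on the same strand, and the part of those genes' reads in their levels was not tested.

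After IRI, more members fell than rose in wild type, as many fell as rose in knockout, and more members were called in wild type than in knockout. A member was called at a Benjamini-Hochberg adjusted p under 0.05 in edgeR's quasi-likelihood test over 19218 genes, and all 321 members passed the filter on low counts. In knockout, 9 members rose and 9 fell, 5.61% of members against 6.32% of all genes tested (3.9% higher and 2.42% lower). In wild type, 30 members rose and 44 fell, 23.1% of members against 22.5% of all genes tested (13.1% higher and 9.41% lower). The share called was thus near the background in both genotypes. In bulk tissue, fewer cells of a type and less RNA per cell cannot be told apart. The median log2 fold change of the members was -0.10 in knockout, against 0.02 for all genes tested, and -0.23 in wild type, against 0.02 for all genes tested. In wild type, 35.2% of members had a positive fold change, against 51.6% of all genes tested. Members whose IRI and control libraries did not overlap were also counted. In knockout 13.4% of members were higher and 22.1% lower without overlap, against 21.2% and 15% of all genes tested, and in wild type 13.7% were higher and 31.5% lower, against 21.2% and 19.9%. Of the members called in wild type, 22 of the 30 that rose and 23 of the 44 that fell changed at least 2-fold.

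The wild-type count depended on several libraries and settings. It was 7, all higher, after adjustment for the Y-linked level (Gm29371, Gm12840, Gm26809, 1700128A07Rik, 1700030N03Rik, 4932411K12Rik and Gm14005), 47 without the libraries with adrenal transcripts and 18 when only the wild-type groups were fitted. Leaving out WT IRI replicate 2 gave 131, leaving out WT control replicate 2 or replicate 3 gave 29 each, and leaving out WT IRI replicate 1 or WT control replicate 1 gave 38 each. In knockout the count was 2 without the libraries with adrenal transcripts and 5 without KO IRI replicate 2, 7 without KO IRI replicate 3, and 6 without KO control replicate 2 or replicate 3. It was 29 without WT IRI replicate 2 and 45 without WT IRI replicate 3. The share of all genes called in these fits was not counted. Whether the counts moved more for members than for all genes was therefore not tested.

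Gm29371 and Gm12840 had the largest fold changes of the members that rose without overlap in each genotype, and the annotation gives no function for them. Gm29371 is a transcript of 2 exons at chr1:87080171-87096418 (mm10, plus strand) that overlaps the span of Alppl2, an alkaline phosphatase gene on the opposite strand. It had 9.72, 18.9 and 17.2 CPM in KO IRI kidneys, against 0.736, 0.644 and 0.601 CPM in KO control kidneys, and 35.9, 15.2 and 53.0 CPM in WT IRI kidneys, against 0.548, 0.726 and 0.598 CPM in WT control kidneys. Every IRI library was above every control library. The log2 fold change was 4.53 ± 0.44 (SE) in knockout (edgeR adjusted p = 0.000982) and 5.79 ± 0.47 in wild type (edgeR adjusted p = 0.000356).

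Gm12840, at chr4:117700188-117700923 on the plus strand, is a transcript of 2 exons whose nearest protein-coding gene, Dmap1, lies 17915 bases away. Its level was 14.7, 27.9 and 28.0 CPM in KO IRI and 2.15, 0.829 and 0.728 CPM in KO control kidneys, and 39.0, 21.01 and 56.6 CPM in WT IRI, against 1.26, 0.828 and 1.83 CPM in WT control kidneys. The groups did not overlap in either genotype, with a log2 fold change of 4.25 ± 0.53 in knockout (edgeR adjusted p = 0.00366) and 4.90 ± 0.54 in wild type (edgeR adjusted p = 0.00098). Gm29371 and Gm12840 were the members called for IRI under all 21 alternative settings in both genotypes.

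Gm26809 was the most abundant member called in both genotypes, with 80.9, 161 and 136 CPM in KO IRI and 21.4, 20.6 and 18.2 CPM in KO control kidneys, and 262, 121 and 463 CPM in WT IRI, against 21.2, 18.4 and 20.3 CPM in WT control kidneys. Its 3 exons lie at chr6:18844220-18847360 on the plus strand, 1219 bases from Lsm8, which encodes an RNA-binding protein of the spliceosome. The control libraries were close to each other, the IRI libraries were all above them, and the WT IRI libraries spread widely. The log2 fold change was 2.65 ± 0.41 in knockout and 3.82 ± 0.43 in wild type. Lsm8 did not pass the test in wild type, at a log2 fold change of 0.45 (adjusted p = 0.0765 by edgeR).

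Further members rose in both genotypes. 1700128A07Rik (chr14:106417187-106486520, minus strand) averaged 10.01 ± 3.63 CPM in KO IRI and 1.85 ± 0.335 CPM in KO control kidneys, and 22.8 ± 17.8 CPM in WT IRI, against 1.37 ± 0.230 CPM in WT control kidneys (SD, n = 3 each). 4932411K12Rik (chr13:101254294-101464160, plus strand) had 1.03, 3.26 and 2.52 CPM in KO IRI and 0.475, 0.338 and 0.570 CPM in KO control kidneys, and 5.44, 2.03 and 4.26 CPM in WT IRI, against 0.386, 0.321 and 0.405 CPM in WT control kidneys. The 2 other members called higher in both genotypes at moderate levels, 2700038G22Rik and 1700120G11Rik, had log2 fold changes of 1.32 and 0.997 in knockout and 1.48 and 1.44 in wild type. In contrast, 1700030N03Rik passed in wild type at 3.61 ± 0.51 and missed the threshold in knockout at 1.72 ± 0.47 (edgeR adjusted p = 0.0543), although its groups did not overlap in either.

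Gm14005, which RefSeq names Morrbid, is known in mouse as a regulator of the neighbouring gene Bcl2l11 in short-lived myeloid cells, where Bcl2l11 encodes the pro-apoptotic protein BIM. Gm14005 had 13.97, 19.6 and 15.6 CPM in KO IRI and 4.66, 5.89 and 4.70 CPM in KO control kidneys, and 28.0, 11.8 and 19.98 CPM in WT IRI, against 4.41, 3.65 and 3.87 CPM in WT control kidneys. IRI and control libraries were fully separate, with a log2 fold change of 1.69 ± 0.27 in knockout (edgeR adjusted p = 0.00772) and 2.32 ± 0.28 in wild type (edgeR adjusted p = 0.00139). Bcl2l11 had a log2 fold change of -0.07 in wild type and was not called. Neutrophil markers moved with this group of members: 2 of 5 were called higher in knockout and 5 of 5 in wild type, and their sum was 3.90 to 6.33 CPM in KO IRI and 0.797 to 1.20 CPM in KO control kidneys, against 4.68 to 20.7 CPM in WT IRI and 0.812 to 0.912 CPM in WT control kidneys. S100a8 and Cxcr2 were at 0 in at least 1 WT control library. Their part in the rise of the lincRNAs was not tested.

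**Figure D1:**
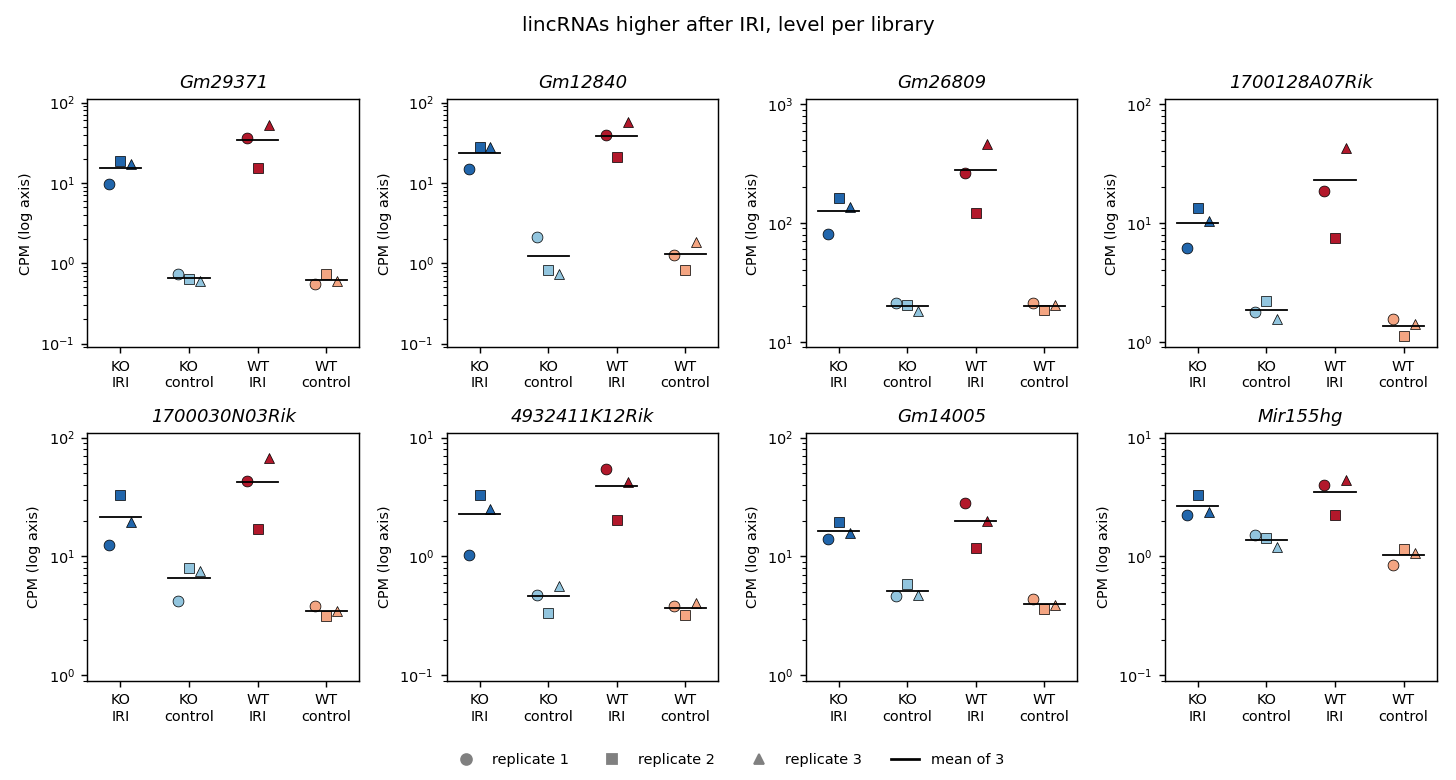
Levels of 8 lincRNAs that were higher after IRI, in TMM-scaled CPM on a log axis, for each of the 12 libraries (circle, square and triangle are replicates 1, 2 and 3; the line is the mean of 3). For all 8, every IRI library lies above every control library of the same genotype, and WT IRI replicate 2 (square) is the lowest WT IRI library in each panel.

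Other members were called higher in wild type and not in knockout, and edgeR's interaction of genotype and IRI over the 12 libraries called 0 members. Mirt1, named in mouse for its rise after myocardial infarction, had 1.20, 3.56 and 1.14 CPM in KO IRI and 0.429, 0.690 and 0.538 CPM in KO control kidneys, and 6.77, 1.51 and 2 CPM in WT IRI, against 0.467, 0.101 and 0.212 CPM in WT control kidneys. Its log2 fold change was 1.84 ± 0.67 in knockout (edgeR adjusted p = 0.131) and 3.73 ± 0.74 in wild type (edgeR adjusted p = 0.00836). B430319H21Rik was called in wild type at 4.61 ± 1.34 on the strength of 1 library (edgeR adjusted p = 0.0329), since WT IRI replicate 3 had 11.98 CPM and every other library had 0.0964 to 0.383 CPM. Without that library its log2 fold change was 0.68 and was not called (edgeR adjusted p = 0.398). It was 1 of 5 members that reached 1 CPM in the mean of a single group, and so became a member only through that library. Other members also met the rule through the groups in which they were high. Gm29371, 4932411K12Rik and Mirt1 were under 1 CPM in every control library, and Gm11754, described below, in every IRI library. Their calls cannot be read apart from the rule that chose them. Gm26573 had 44.8, 80.2 and 58.5 CPM in KO IRI and 30.3, 38.7 and 38.2 CPM in KO control kidneys, and 95.5, 49.6 and 205 CPM in WT IRI, against 28.7, 25.1 and 22.7 CPM in WT control kidneys.

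The promoters of 4 responding members are shown because they hold or lack the letters of an AP-1 site, AP-1 being the dimer of Fos and Jun proteins that is induced early in injured tissue. Each runs from 250 bases before to 50 bases after the RefSeq start, 5′ to 3′ on the strand of the gene, from RefSeq on GRCm38.p6. Capitals mark TGANTCA. Gm29371 lies at chr1:87086975-87087274 on the plus strand, Gm14005 at chr2:128429302-128429601 on the minus strand, Mirt1 at chr19:53464747-53465046 on the minus strand and Gm12829, which fell, at chr4:114680090-114680389 on the plus strand. The RefSeq starts of Gm29371 and Gm14005 lie inside the longer GENCODE spans.
Gm29371: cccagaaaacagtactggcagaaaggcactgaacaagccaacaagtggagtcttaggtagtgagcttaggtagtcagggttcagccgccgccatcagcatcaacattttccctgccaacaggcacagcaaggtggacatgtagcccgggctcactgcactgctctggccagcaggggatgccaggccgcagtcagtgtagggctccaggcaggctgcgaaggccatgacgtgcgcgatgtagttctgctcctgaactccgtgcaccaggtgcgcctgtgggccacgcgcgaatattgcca
Gm14005: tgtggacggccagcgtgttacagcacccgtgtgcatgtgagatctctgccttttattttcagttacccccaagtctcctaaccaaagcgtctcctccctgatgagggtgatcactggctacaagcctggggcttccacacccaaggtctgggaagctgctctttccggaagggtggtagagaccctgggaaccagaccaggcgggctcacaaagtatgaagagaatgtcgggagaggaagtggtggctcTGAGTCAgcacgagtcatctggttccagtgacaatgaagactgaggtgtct
Mirt1: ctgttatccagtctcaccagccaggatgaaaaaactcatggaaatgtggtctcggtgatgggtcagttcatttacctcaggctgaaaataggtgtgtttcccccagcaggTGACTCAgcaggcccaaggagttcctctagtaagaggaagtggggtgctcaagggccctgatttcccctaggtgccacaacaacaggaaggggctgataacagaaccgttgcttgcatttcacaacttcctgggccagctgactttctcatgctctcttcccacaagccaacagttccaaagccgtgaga
Gm12829: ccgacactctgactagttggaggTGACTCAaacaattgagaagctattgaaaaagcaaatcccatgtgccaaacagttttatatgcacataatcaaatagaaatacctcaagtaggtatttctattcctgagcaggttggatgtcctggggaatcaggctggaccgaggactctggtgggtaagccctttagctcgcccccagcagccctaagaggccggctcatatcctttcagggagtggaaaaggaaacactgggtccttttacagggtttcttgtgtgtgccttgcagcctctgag

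The letters TGANTCA, searched on both strands, begin 1 base before the start in Gm14005 (position -1), at -140 in Mirt1 and at -227 in Gm12829, and they are not in the Gm29371 window. Of 321 members, 177 had a promoter in the RefSeq table. The motif was in 7.35% of these, against 7.93% of all 27025 RefSeq promoters of that length. Among members called in wild type it was in 2 of 13 that rose and in 3 of 27 that fell. The C/EBP letters TTGCNNAA were in 9.04% of the members' promoters, against 10.75% of all. The motif of HNF1, a factor of tubule cells, was in 0.565% of the members' promoters, against 0.437% of all. A match describes these letters and not a bound site.

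In their spans, 12 members held 38 mature microRNAs of the RefSeq table. These libraries measured the host transcripts, not the mature microRNAs. In knockout 0 of the 12 hosts were called, where 6.32% of all tested genes were. In wild type Mir17hg and Mir155hg rose, Ftx and E130102H24Rik fell, and the other 8 were not called, where 13.1% of all tested genes rose and 9.41% fell. Mature sequences of the called hosts are shown with the seed, bases 2 to 8, in capitals, to make the shared seeds visible.
miR-17-5p: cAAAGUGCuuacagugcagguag
miR-20a-5p: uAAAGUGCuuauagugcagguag
miR-18a-5p: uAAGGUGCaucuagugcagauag
miR-19a-3p: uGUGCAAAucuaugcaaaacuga
miR-19b-3p: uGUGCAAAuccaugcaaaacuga
miR-92a-3p: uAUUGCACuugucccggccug
miR-155-5p: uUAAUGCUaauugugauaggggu
miR-101a-3p: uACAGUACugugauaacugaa
miR-374b-5p: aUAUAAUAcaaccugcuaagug

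Mir17hg (chr14:115042879-115046727, plus strand) is the precursor of the miR-17 to miR-92 cluster, which is known to favour proliferation. Within it, miR-17-5p and miR-20a-5p share the seed AAAGUGC, miR-19a-3p and miR-19b-3p share GUGCAAA, and miR-18a-5p has AAGGUGC. Mir17hg had 3.16, 5.22 and 4.06 CPM in KO IRI and 2.94, 2.27 and 2.56 CPM in KO control kidneys, and 5.69, 3.49 and 14.8 CPM in WT IRI, against 2.52, 2.55 and 2.72 CPM in WT control kidneys. The log2 fold change was 0.68 ± 0.42 in knockout (edgeR adjusted p = 0.382) and 1.62 ± 0.43 in wild type (edgeR adjusted p = 0.0239), with WT IRI replicate 3 far above the rest. Without that library the log2 fold change in wild type was 0.82 and was still called. The call was lost in 5 of 21 alternative settings, among them leaving out any of the WT control libraries.

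Mir155hg (chr16:84703167-84715245, plus strand) is the precursor of miR-155, a microRNA of activated lymphocytes and macrophages. It had 2.23, 3.30 and 2.37 CPM in KO IRI and 1.52, 1.44 and 1.20 CPM in KO control kidneys, and 3.96, 2.22 and 4.36 CPM in WT IRI, against 0.853, 1.17 and 1.08 CPM in WT control kidneys. Groups did not overlap in either genotype, and the log2 fold change was 0.93 ± 0.27 in knockout (edgeR adjusted p = 0.0654) and 1.76 ± 0.28 in wild type (edgeR adjusted p = 0.00355). Of 4 macrophage markers, 1 was called higher and 1 lower in knockout, and 2 were called higher and 1 lower in wild type. Their sum was 41.3 to 43.5 CPM in KO IRI and 53.4 to 60.8 CPM in KO control kidneys, against 45.9 to 60.3 CPM in WT IRI and 59.7 to 64.1 CPM in WT control kidneys.

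E130102H24Rik, whose span holds miR-101a, had a log2 fold change of -0.36 ± 0.12 in knockout (edgeR adjusted p = 0.109) and -0.41 ± 0.12 in wild type (edgeR adjusted p = 0.0364). Ftx, a lincRNA of the X inactivation centre that hosts miR-374b and miR-421, had 52.5, 40.1 and 48.9 CPM in KO IRI and 54.2, 46.0 and 47.4 CPM in KO control kidneys, and 32.6, 40.5 and 29.0 CPM in WT IRI, against 41.6, 53.6 and 47.3 CPM in WT control kidneys. It fell by 0.48 ± 0.15 on the log2 scale in wild type (edgeR adjusted p = 0.0447). The wild-type call was lost in 15 of 21 alternative settings for Ftx and in 11 of 21 for E130102H24Rik. The let-7 host 6720427I07Rik did not pass the test, with a log2 fold change of -0.003 in wild type.

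Of the members that fell, 7 were called in both genotypes, and no function is described for most of them. Gm12829 (chr4:114680804-114687595, plus strand) had 1.08, 0.860 and 1.19 CPM in KO IRI and 3.83, 2.98 and 3.24 CPM in KO control kidneys, and 0.752, 1.38 and 0.575 CPM in WT IRI, against 3.35, 3.07 and 3.97 CPM in WT control kidneys. Every IRI library was below every control library, with a log2 fold change of -1.69 ± 0.29 in knockout (edgeR adjusted p = 0.00987) and -1.93 ± 0.29 in wild type (edgeR adjusted p = 0.00317). Gm14812 on the X chromosome had log2 fold changes of -1.49 ± 0.39 in knockout and -1.95 ± 0.40 in wild type and was called in both.

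Gm26697 and Gm26608 lie beside genes of lipid metabolism. Gm26697 (chr2:126521202-126553662, minus strand) overlaps Slc27a2, which encodes a fatty acid transporter and acyl-CoA synthetase of proximal tubule and liver, on the opposite strand. It had 4.81, 4.09 and 4.82 CPM in KO IRI and 11.2, 11.98 and 12.5 CPM in KO control kidneys, and 3.84, 5.05 and 2.40 CPM in WT IRI, against 6.64, 6.96 and 6.32 CPM in WT control kidneys. Its log2 fold change was -1.38 ± 0.22 in knockout (edgeR adjusted p = 0.00772) and -0.82 ± 0.22 in wild type (edgeR adjusted p = 0.0248), and the KO control libraries were the highest of the 12. Slc27a2 was called lower in knockout at -1.03 ± 0.18 (edgeR adjusted p = 0.0118) and was not called in wild type at -0.49 ± 0.18 (edgeR adjusted p = 0.0754). The difference between the genotypes in the response of Gm26697, -0.56 ± 0.31, was not called (edgeR adjusted p = 0.666).

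Gm26608 (chr5:28019465-28071105, minus strand) starts 258 bases from Insig1 in the opposite direction, and Insig1 encodes a protein that holds back the cholesterol-regulating factors SREBP. Gm26608 had 1.001, 0.815 and 0.569 CPM in KO IRI and 2.51, 2.21 and 2.45 CPM in KO control kidneys, and 0.447, 0.354 and 0.745 CPM in WT IRI, against 1.04, 1.59 and 1.43 CPM in WT control kidneys. The log2 fold change was -1.57 ± 0.30 in knockout (edgeR adjusted p = 0.0143) and -1.39 ± 0.31 in wild type (edgeR adjusted p = 0.0123). Insig1 was also called lower in both, at -1.46 ± 0.23 in knockout and -1.11 ± 0.23 in wild type. The other members called lower in both genotypes were Gm10787, Gm17586 and Gm30097, at -1.13, -0.89 and -0.85 in knockout and -0.90, -0.59 and -1.22 in wild type.

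Some larger falls were called in wild type and not in knockout. Gm11754 had 0.508, 0.0148 and 0.569 CPM in KO IRI and 3.17, 1.46 and 1.04 CPM in KO control kidneys, and 0.0406, 0.336 and 0 CPM in WT IRI, against 2.86, 2.82 and 2.29 CPM in WT control kidneys. Halr1, a transcript beside the Hoxa cluster, had 3.74, 1.27 and 2.62 CPM in KO IRI and 5.66, 4.53 and 4.59 CPM in KO control kidneys, and 0.914, 3.08 and 0.340 CPM in WT IRI, against 7.59, 8.41 and 6.25 CPM in WT control kidneys. For Halr1, WT IRI replicates 1 and 3 were low and replicate 2 was intermediate. In knockout the log2 fold change was -2.42 ± 0.91 for Gm11754 and -0.95 ± 0.59 for Halr1 (edgeR adjusted p = 0.139 and 0.375), and in wild type it was -4.33 ± 1.03 for Gm11754 and -2.35 ± 0.61 for Halr1 (edgeR adjusted p = 0.016 and 0.0226). Gm5524, A830008E24Rik, Gm12962, Tmem61, Gm14762 and AI838599 fell in wild type by 1.55 to 2.95 on the log2 scale, and none of them was called in knockout.

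Kidney tubule markers moved with the members that fell. In knockout 2 of 8 tubule markers were called lower and in wild type 6 of 8, and their sum was 5450 to 9995 CPM in KO IRI and 13800.3 to 15711.9 CPM in KO control kidneys, against 4604 to 9841 CPM in WT IRI and 15566 to 17910.1 CPM in WT control kidneys. None of the 8 was at 0 in any library, and their part in the fall of the lincRNAs was not tested. The WT IRI replicates differed among themselves in both sets of members. Replicate 2 was the lowest WT IRI library for 25 of the 30 members that rose and the highest for 35 of the 44 that fell. Replicate 3 was the highest for 16 of the 30 and the lowest for 36 of the 44. The tubule sums of WT IRI replicates 1, 2 and 3 were 4604, 9841 and 5647 CPM. Their neutrophil sums were 19.6, 4.68 and 20.7 CPM. The same order among all genes was not counted, and its link to these sums was not tested.

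**Figure D2:**
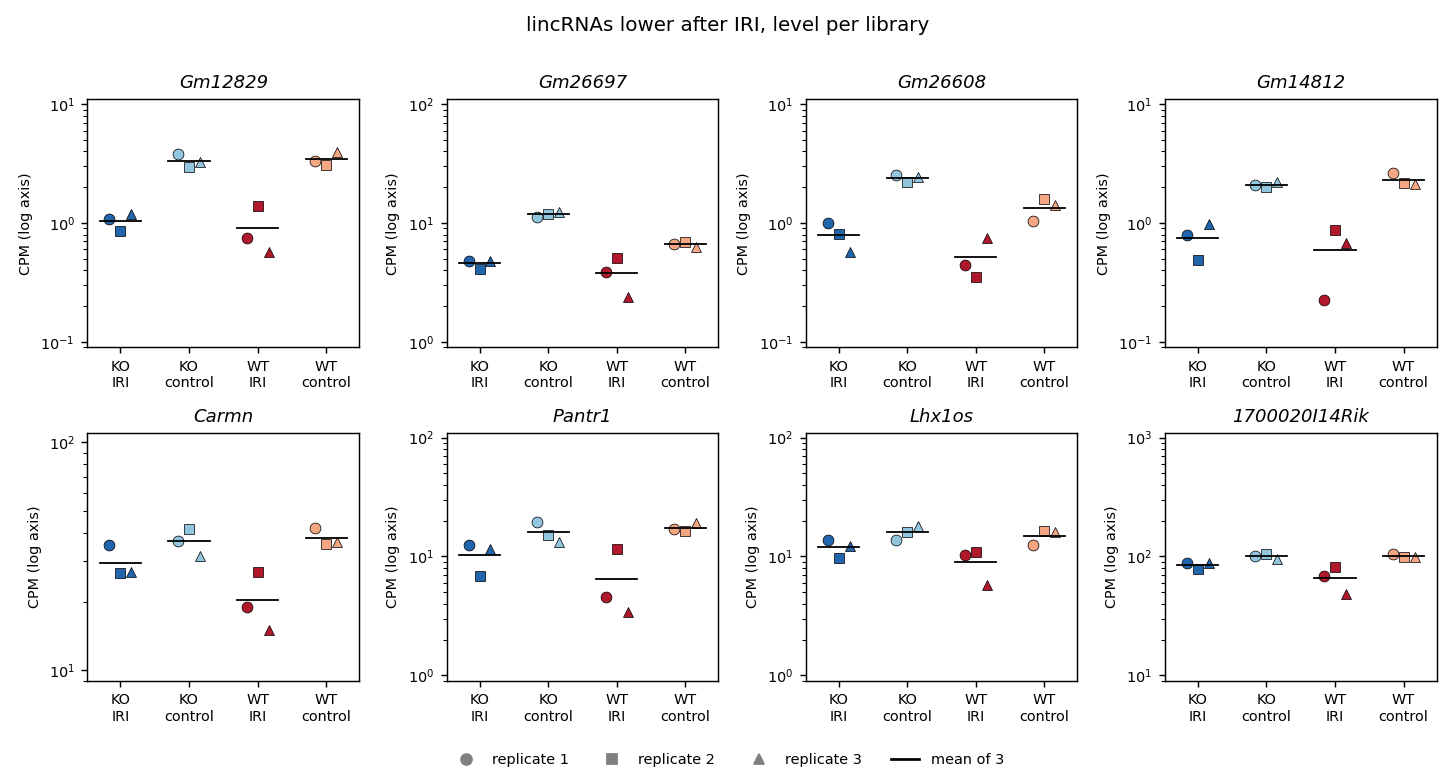
Levels of 8 lincRNAs that were lower after IRI, in TMM-scaled CPM on a log axis, for each of the 12 libraries (circle, square and triangle are replicates 1, 2 and 3; the line is the mean of 3). Gm26697 and Gm26608 show the highest levels in KO control kidneys, and Carmn, Pantr1, Lhx1os and 1700020I14Rik were called lower in wild type and not in knockout.

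Of the list of lincRNAs with described roles in growth, stress or nuclear organisation, 7 of 23 names were members by symbol. Gm14005 (Morrbid) and 1700020I14Rik (Oip5os1, also Cyrano) are on the list under their other names and are not counted in the 7. Gm14005 was called higher in both genotypes, and 1700020I14Rik was called lower in wild type. In knockout 0 of the 7 matched by symbol were called, where 6.32% of all tested genes were. In wild type 1 of the 7 rose and 2 fell, where 22.5% of all tested genes were called. The median log2 fold change of the 7 was -0.06 in knockout and -0.26 in wild type. Pvt1, which lies beside Myc and hosts microRNAs in human, had 75.5, 119 and 72.4 CPM in KO IRI and 48.5, 82.6 and 90.7 CPM in KO control kidneys, and 127, 70.1 and 67.4 CPM in WT IRI, against 39.5, 50.3 and 44.8 CPM in WT control kidneys. Knockout groups overlapped and wild-type groups did not, with a log2 fold change of 0.27 ± 0.30 in knockout (edgeR adjusted p = 0.665) and 0.97 ± 0.30 in wild type (edgeR adjusted p = 0.0401). Without WT IRI replicate 1 the wild-type value of Pvt1 was 0.60 and was not called (edgeR adjusted p = 0.144), and its call was lost in 12 of 21 alternative settings. Myc, 47612 bases away, was called higher in both genotypes, at 2.64 ± 0.50 in knockout and 3.41 ± 0.52 in wild type.

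Carmn, a transcript of smooth muscle and cardiac lineages, had 35.5, 26.6 and 26.9 CPM in KO IRI and 37.0, 41.6 and 31.6 CPM in KO control kidneys, and 18.95, 27.0 and 14.98 CPM in WT IRI, against 41.9, 35.7 and 36.5 CPM in WT control kidneys. In knockout its log2 fold change was -0.31 ± 0.20 (edgeR adjusted p = 0.413), and in wild type it fell by 0.90 ± 0.21 (edgeR adjusted p = 0.0135). Pantr1, transcribed away from the neurodevelopmental factor gene Pou3f3, had log2 fold changes of -0.63 ± 0.39 in knockout (edgeR adjusted p = 0.371) and -1.43 ± 0.39 in wild type (edgeR adjusted p = 0.0277). Dubr, Bvht, Lncpint and 2900097C17Rik were the others of the 7 matched by symbol and were not called in either genotype.

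1700020I14Rik, which RefSeq names Oip5os1 and which is known as Cyrano for directing the decay of miR-7 in mouse, had 88.8, 78.4 and 88.1 CPM in KO IRI and 102, 104 and 94.9 CPM in KO control kidneys, and 68.9, 81.4 and 48.1 CPM in WT IRI, against 104, 99.1 and 98.9 CPM in WT control kidneys. IRI libraries were below control libraries in both genotypes, with a log2 fold change of -0.24 ± 0.16 in knockout (edgeR adjusted p = 0.414) and -0.61 ± 0.16 in wild type (edgeR adjusted p = 0.022). Of 8 imprinted lncRNAs on a list, Meg3 was the 1 member. Of 5 lncRNAs of the X inactivation centre, Ftx and Jpx were members, and Jpx was not called. Of 14 names on a list of microRNA host lncRNAs, 4 were members, namely Mirt1, Mir155hg, Mir17hg and Lncpint. The spans of Mirt1 and Lncpint held no mature microRNA of the RefSeq table, so neither is among the 12 hosts given above. Of the 4 names, 3 (Mirt1, Mir155hg and Mir17hg) were called higher in wild type and 0 in knockout. Of all tested genes, 3.9% were called higher in knockout and 13.1% in wild type. The median log2 fold change of the 4 names was 0.80 in knockout and 1.69 in wild type, and it does not describe the 12 hosts.

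Most members called for IRI in a genotype had the same sign in the other, and the 2 comparisons share no libraries. Of the 18 members called in knockout, all 18 had the same sign in wild type and 15 (83.3%) were called there too. Of the 74 called in wild type, 68 (91.9%) had the same sign in knockout and 15 (20.3%) were called there with that sign. Among all genes tested, 95.3% of the 4320 called in wild type had the same sign in knockout. Of these 4320, 928 (21.5%) were also called there with that sign, so the members were near all genes in this. The matching shares for all genes called in knockout were not counted. For members called in wild type the median absolute log2 fold change was 0.64 in knockout and 1.099 in wild type, against 0.48 in knockout and 0.91 in wild type for all genes called in wild type, a set that was chosen on its wild-type values. For the 18 called in knockout it was 1.53 in knockout and 1.46 in wild type. Members called in knockout and not in wild type were Gm15348 at -3.65, Gm26745 at -0.52 and 2410018L13Rik at 0.76 on the log2 scale.

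**Figure D3:**
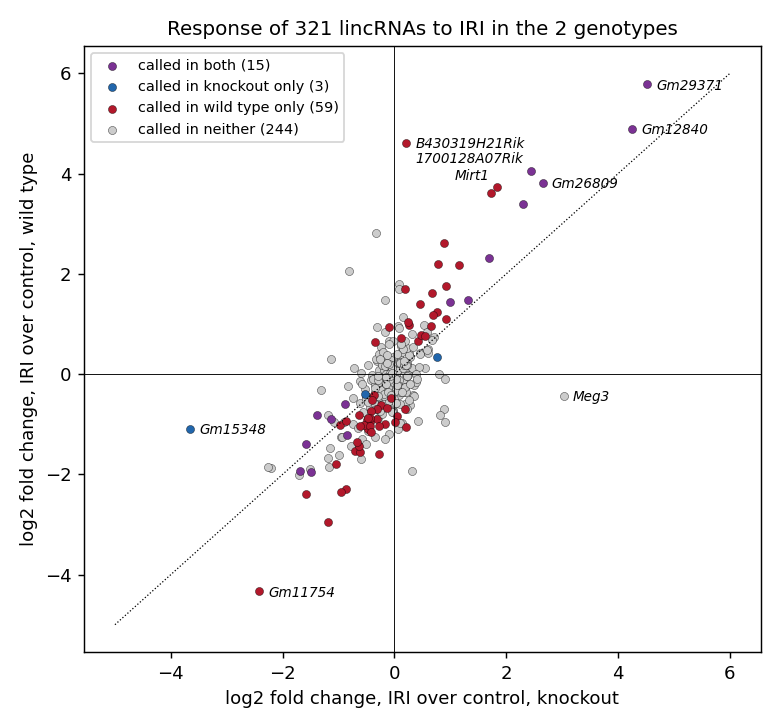
Log2 fold change of IRI over control for each of the 321 lincRNAs, in knockout (horizontal) and in wild type (vertical), coloured by the genotypes in which edgeR called it; the dotted line marks equal change. Of the points, 15 were called in both genotypes, 3 in knockout only, 59 in wild type only and 244 in neither, and Meg3 and Gm15348 lie far from the line.

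Members were also described by their position relative to protein-coding genes. A divergent pair is here a lincRNA and a protein-coding gene on opposite strands whose starts lie within 2000 bases of each other. The gene starts upstream of the lincRNA or a short way downstream of its start. The pairs are thus transcribed away from each other or overlap at their starts. Such a partner was annotated for 66 of 321 members (20.6%), for 1 of the 30 that rose in wild type, for 9 of the 44 that fell and for 56 of the 247 not called. Among 64 divergent pairs with a tested partner, the lincRNA was called in 2 and the gene in 3 in knockout. In wild type the lincRNA was called in 9 and the gene in 12. Of all genes tested, 6.32% were called in knockout and 22.5% in wild type. In wild type both were called in the same direction for Gm26608 with Insig1 and Gm12474 with Tent5c and in opposite directions for Fam120aos with Fam120a. The signs matched in 50% of these pairs in knockout and 46.9% in wild type, and Pearson's r across pairs was 0.47 in knockout and 0.22 in wild type, over pairs that share libraries. For 59 members whose nearest gene lay over 50 kb away, the signs matched in 47.5% in knockout and 64.4% in wild type. Pearson's r across those distant pairs was 0.24 in knockout and 0.21 in wild type. In wild type the signs of divergent pairs thus matched no more often than those of distant pairs.

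Lhx1os starts 125 bases from Lhx1, a transcription factor gene of nephron development. It had 13.8, 9.68 and 12.2 CPM in KO IRI and 13.9, 16.1 and 17.99 CPM in KO control kidneys, and 10.3, 10.8 and 5.75 CPM in WT IRI, against 12.5, 16.3 and 16.1 CPM in WT control kidneys. Lhx1os was called lower in wild type at -0.74 ± 0.23 (edgeR adjusted p = 0.0439), and Lhx1 at -0.79 ± 0.27 was not called (edgeR adjusted p = 0.0526). The call of Lhx1os was lost in 15 of 21 alternative settings. Fam120aos, 270 bases from Fam120a, fell by 0.51 ± 0.11 in wild type while Fam120a rose by 0.46 ± 0.14, and neither was called in knockout.

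Where the spans of lincRNA and gene overlap, 49 pairs could be tested. The signs matched in 65.3% of these pairs in knockout and 55.1% in wild type. In wild type the lincRNA was called in 6 pairs and the gene in 9, and both were called for 4 of them. Gm26578 rose together with Nrg1, the gene of an ErbB receptor ligand on the opposite strand, at 2.18 ± 0.35 and 2.52 ± 0.40. C330002G04Rik fell together with the channel gene Trpm3, at -1.53 ± 0.42 and -1.09 ± 0.30. Gm30097 fell while Fgg, which encodes the fibrinogen gamma chain, rose, at -0.85 ± 0.21 and 4.65 ± 0.64 in knockout and at -1.22 ± 0.22 and 6.29 ± 0.69 in wild type. Gm17276 fell while Notch3, a receptor gene of vascular smooth muscle, rose, at -0.68 ± 0.16 and 0.93 ± 0.13. These pairs lie on opposite strands, and the sources used here do not say whether counting used the strand. Among members close to a gene without overlap, A530013C23Rik lies 759 bases from Cebpb, the gene of an injury-induced transcription factor, and both were called higher in wild type, at 2.62 ± 0.72 and 2.97 ± 0.59. Without WT IRI replicate 3 the log2 fold change of A530013C23Rik was 1.14 and was not called (edgeR adjusted p = 0.103), and its call was lost in 8 of 21 alternative settings.

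**Figure D4:**
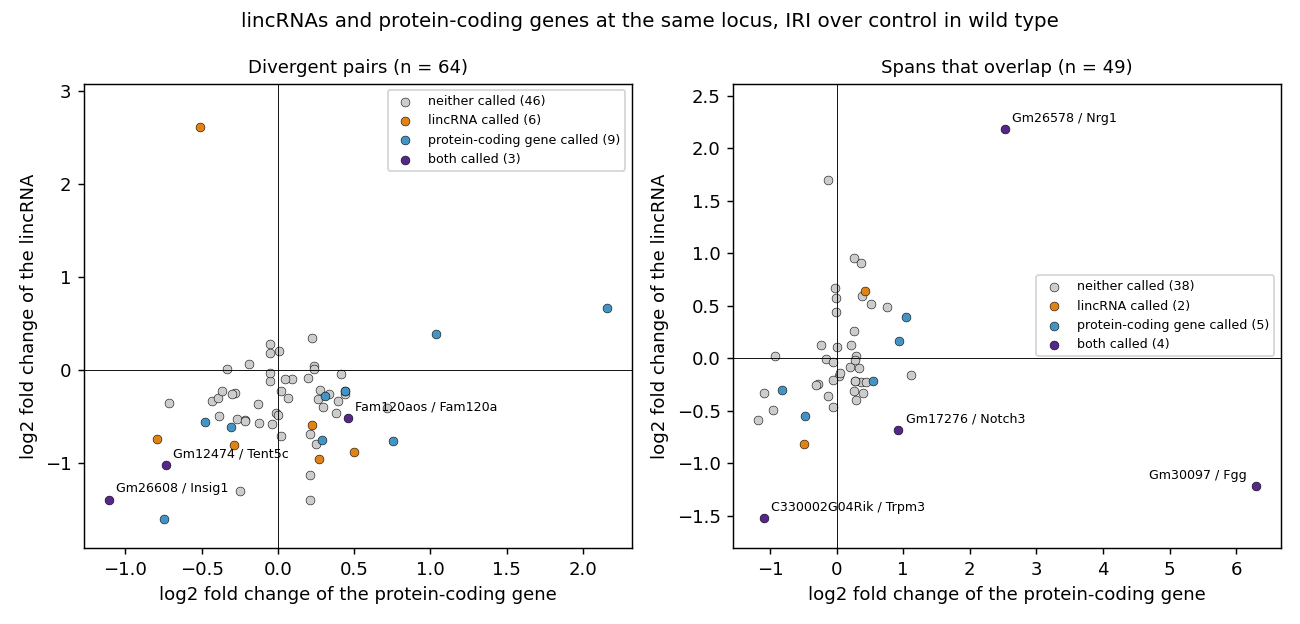
Log2 fold change of IRI over control in wild type for lincRNAs (vertical) and for the protein-coding gene at the same locus (horizontal), for 64 divergent pairs and for 49 pairs whose spans overlap. Points are coloured by which of the pair was called, and the pairs with both called, 3 and 4 in number, are named.

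Between the genotypes no member was called. Ybx3 itself was called lower in knockout after IRI, at -2.33 ± 0.23 on the log2 scale (edgeR adjusted p = 0.00719). In control kidneys it was not called, at -1.66 ± 0.23 (edgeR adjusted p = 0.0784), although the genotypes did not overlap. The absence of calls therefore does not show that the members are equal between the genotypes. In control kidneys 0 of 321 members passed, against 0.0104% of all genes tested (0.0052% higher and 0.0052% lower). An unadjusted p under 0.05 was found for 22 of the 321 members, against 1030 of all 19218 genes tested. After IRI 0 of 321 members passed, again against 0.0104% of all genes tested (0.0052% higher and 0.0052% lower). Here 46 members had an unadjusted p under 0.05, against 2214 of the 19218 genes. For the interaction 0 passed, against 0.0% of all genes tested, and 26 members had an unadjusted p under 0.05, against 1350 of the 19218 genes. DESeq2 called 2 members in control kidneys, against 0.37% of all genes it tested, namely Gm15348 and Gm26697. After IRI it called 5, against 0.592%, namely Gm13470, Meg3, Gm30097, C230088H06Rik and Gm13052, all higher in knockout, and for the interaction it called 0, against 0.153%. Leaving out WT IRI replicate 2 gave 22 calls by edgeR after IRI, 16 higher and 6 lower in knockout, and leaving out KO IRI replicate 3 gave 1, Meg3. The share of all genes called in those 2 fits was not counted, so these counts have no background beside them.

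By direction alone, more members were higher than lower in knockout. In control kidneys 41 members (12.8%) were higher in knockout without overlap and 14 (4.36%) lower, against 6.34% and 10.1% of all genes tested. After IRI 39 (12.1%) were higher and 6 (1.87%) lower, against 6.28% and 5.95% of all genes tested. The median log2 fold change of the members was 0.06 in control kidneys and 0.18 after IRI, against -0.01 for all genes tested in each. These comparisons share the same libraries with those of IRI within a genotype, and the Y-linked sums and adrenal transcripts given above differ between the groups. After adjustment for the Y-linked level 0 members were called between the genotypes in either condition. The main fit also called 0, so this says nothing of the direction counts. The part of the Y-linked level and of the adrenal transcripts in the direction counts was not tested.

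Among the members with the smallest p in control kidneys, Gm26697 and Gm26608 were higher in knockout without overlap, at 0.84 ± 0.22 and 0.82 ± 0.29 on the log2 scale (edgeR adjusted p = 0.624 and 0.8). D930016D06Rik, which RefSeq names Thoc2l, had 27.6, 38.2 and 37.8 CPM in KO control and 21.6, 25.4 and 26.8 CPM in WT control kidneys. 4930565D16Rik had 0.874, 1.26 and 0.965 CPM in KO control and 4.10, 1.98 and 1.93 CPM in WT control kidneys. After IRI, Gm13470 had 1.91, 2.21 and 2.33 CPM in knockout and 1.28, 1.29 and 0.745 CPM in wild type, a log2 difference of 0.96 ± 0.22 (adjusted p = 0.422 by edgeR). Gm30097 had 10.9, 8.73 and 9.84 CPM in KO IRI and 5.97, 6.04 and 3.79 CPM in WT IRI kidneys. Gm13052 and C230088H06Rik were higher in knockout without overlap, at 0.76 ± 0.19 and 0.67 ± 0.17. The smallest p for the interaction, the IRI response in knockout minus that in wild type, were those of 4930565D16Rik at 1.85 ± 0.50, D930032P07Rik at -0.99 ± 0.29, Gm13052 at 0.89 ± 0.27, Gm12132 at 0.87 ± 0.29 and C130071C03Rik at -0.63 ± 0.22, all with an edgeR adjusted p of 0.666.

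A few members followed single libraries more than groups. Meg3, a maternally expressed imprinted transcript, had 15.1, 71.2 and 2.28 CPM in KO IRI and 6.68, 1.73 and 2.39 CPM in KO control kidneys, and 0.731, 1.77 and 2.21 CPM in WT IRI, against 1.81, 2.35 and 2.22 CPM in WT control kidneys. Its high libraries, KO IRI replicates 1 and 2, are those with adrenal transcripts, and KO IRI replicate 3 was at the level of the other groups. The difference between knockout and wild type after IRI, 4.23 ± 1.03, was not called by edgeR (adjusted p = 0.422).

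Gm15348 (chr8:12706944-12719127, minus strand) had 0.524, 1.08 and 0.841 CPM in KO IRI and 1.40, 15.8 and 13.5 CPM in KO control kidneys, and 0.995, 0.671 and 0.638 CPM in WT IRI, against 1.81, 1.18 and 1.93 CPM in WT control kidneys. KO control replicates 2 and 3, the libraries with the Y-linked sums of 248.5 and 261.2 CPM in that group, had the high levels of Gm15348, and replicate 1, whose Y-linked sum was 1.18 CPM, had 1.40 CPM of it. WT IRI libraries with Y-linked sums of 206.6 and 307.1 CPM had low Gm15348. Its difference between knockout and wild type in control kidneys was 2.65 ± 0.67 (edgeR adjusted p = 0.624), and without KO control replicate 1 it was 3.17 ± 0.32 and was called (edgeR adjusted p = 0.0039). Gm27216, chosen after its values were seen, had 4.11, 10.1 and 2.84 CPM in KO IRI and 2.10, 14.7 and 13.3 CPM in KO control kidneys, and 16.7, 5.20 and 8.96 CPM in WT IRI, against 3.61, 1.84 and 1.97 CPM in WT control kidneys. Its lowest 5 libraries were the 5 with a Y-linked sum under 2 CPM, and the part of that sum in its level was not tested.

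**Figure D5:**
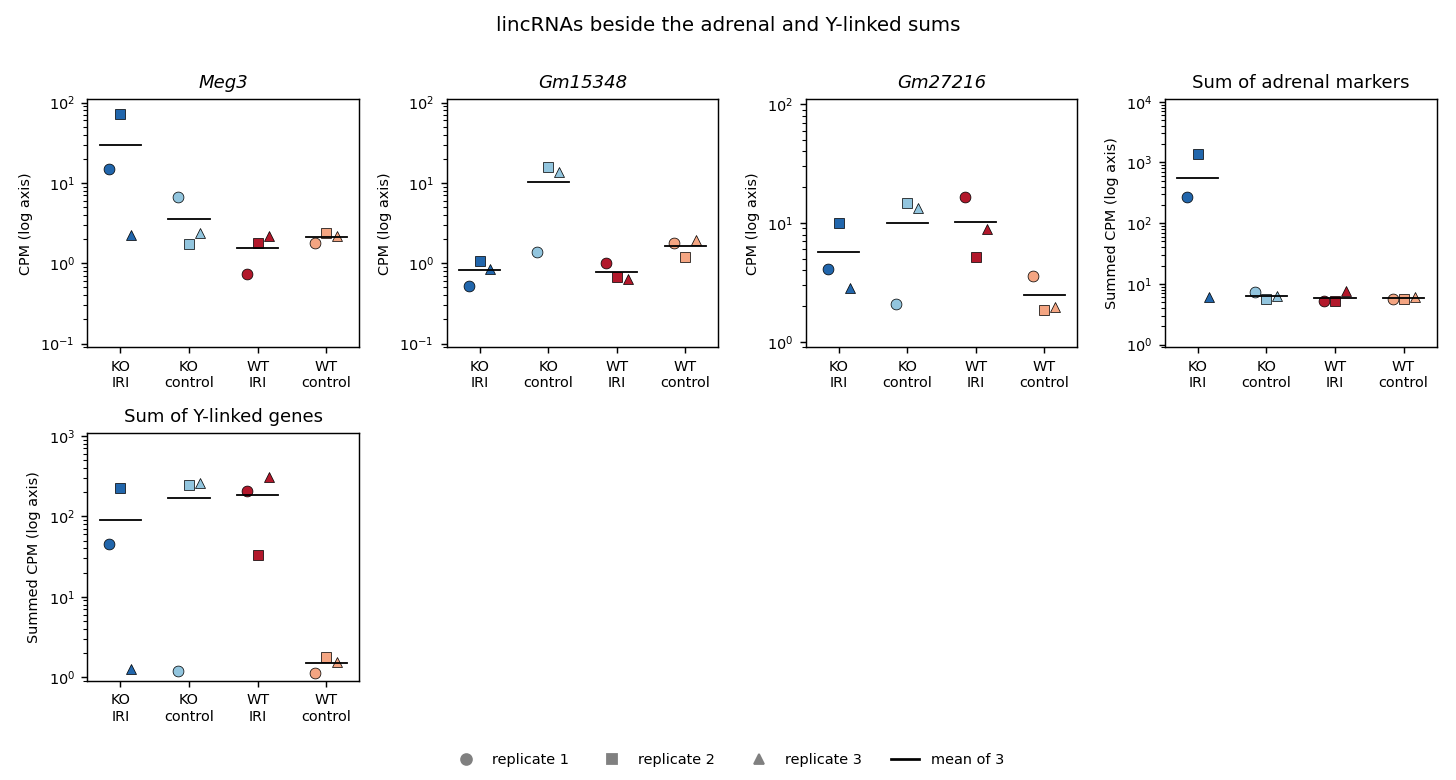
Levels of Meg3, Gm15348 and Gm27216 and the sums of 5 adrenal markers and of 4 Y-linked genes, in TMM-scaled CPM on a log axis, for each of the 12 libraries (circle, square and triangle are replicates 1, 2 and 3; the line is the mean of 3). Meg3 is highest in the KO IRI libraries in which the adrenal sum is 271.7 and 1397 CPM, and the Y-linked sum is under 2 CPM in all WT control libraries.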

How the data were processed

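Total RNA of mouse kidneys was depleted of ribosomal RNA and sequenced in pairs with a directional kit, per the labels' protocols. The authors deposited 1 table of raw counts for 12 libraries, as whole numbers by Ensembl gene and without normalization. Alignment with STAR to mm10 is named in the submitters' processing notes. The sources used here do not give the STAR version, the counting tool or its strand setting. Library totals of 39074224 to 67948710 counts limit the precision for members near 1 CPM.

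Samples were grouped by genotype and treatment from the labels, and the members and lists were chosen with earlier results of these data known. Rows were kept by filterByExpr (minimum count 10, minimum total 15), which left 19218 rows. Libraries were scaled with TMM, and all 4 groups were fitted together with the quasi-likelihood test of edgeR 4.0.16 in R 4.3.3 (limma 3.58.1), with Benjamini-Hochberg adjustment over all rows and a threshold of 0.05. Levels by library are TMM-scaled CPM, and the rule used CPM over the column sum. The fit was tested on simulated data. The alternatives were DESeq2 1.42.0, RLE scaling, library totals alone, other rows in the totals, no filter, a replicate block, a Y-linked covariate, fewer groups, and each library or the libraries with adrenal transcripts left out.

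Named members were the 10 per direction with the largest fold change among called members without overlap, the 10 with the highest mean CPM, the 5 with the smallest p for each genotype comparison and the interaction, the members on the lists, those within 20 Mb of Ybx3 and those at the CPM threshold. Gm26573, Gm20732, Gm10076, Gm27216, and the microRNA hosts and neighbour pairs outside these groups were chosen after their values were seen. Positions are from GENCODE M21 on mm10, and names, promoters and microRNAs from RefSeq on GRCm38.p6. Of lincRNA rows free of other genes' exons, 36.4% had no count in any library, against 59.4% of the 96 that lie mostly under exons of the opposite strand.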

Additional observations from a re-analysis of the deposited data

Results flagged for a closer look

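D930032P07Rik was singled out because its IRI libraries lay below its control libraries in knockout and above them in wild type. It had 1.08, 1.22 and 0.989 CPM in KO IRI and 1.47, 1.46 and 1.27 CPM in KO control kidneys, and 1.69, 1.88 and 1.17 CPM in WT IRI, against 0.975, 1.03 and 1.04 CPM in WT control kidneys. Groups did not overlap in either genotype. The log2 fold change was -0.35 ± 0.21 in knockout (edgeR adjusted p = 0.353) and 0.64 ± 0.21 in wild type (edgeR adjusted p = 0.0492). The change in knockout did not pass the test, and the call in wild type was lost in 17 of 21 alternative settings. The interaction was -0.99 ± 0.29 and was not called after adjustment over all genes (edgeR adjusted p = 0.666).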

How the results depend on the processing

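Counts of called members moved by more than 1.5 times under several settings, and no called member changed direction in any. For IRI in knockout the main count was 18, and it was 9 with the replicate block and 29 with only the groups compared. DESeq2 gave 38, against 11.9% of all genes it tested, and leaving out single libraries gave 5 to 45. Library totals alone also gave 18, with 12 higher and 6 lower in place of 9 and 9. For IRI in wild type the main count was 74, and it was 48 with the replicate block, 7 with the Y-linked covariate, 47 without the libraries with adrenal transcripts and 18 with only the groups compared, with 29 to 131 when single libraries were left out. Between the genotypes DESeq2 called 2 in control kidneys and 5 after IRI, against 0 by edgeR in each. Leaving out single libraries gave 0 to 1 in control kidneys, 0 to 22 after IRI and 0 to 1 for the interaction, and library totals alone moved the interaction median of all genes from -0.01 to 0.13. The summed level of the members had a median of 28047.5 CPM, and 3651.9 CPM without the loci that overlap ribosomal RNA. Of the members called, 2 of 18 in knockout and 7 of 74 in wild type were called under all 21 settings. Without the libraries with adrenal transcripts, KO IRI has 1 sample, assumed to vary like the other groups. The causes of these moves were not tested. The share of all genes called was counted for the main fit and DESeq2 alone. Whether the other counts moved more for members than for all genes was not tested. Same-numbered samples did not deviate together (correlations of -0.487 to 0.102). These values cannot exclude a pairing by number, since all other spread within the groups enters them, and the labels state none.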

Other observations

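The 4 members within 20 Mb of Ybx3 on chromosome 6 were 2310001H17Rik, Gm9946, 4930479D17Rik and Gm17216, and none was called in any comparison. Of 8 members on the X chromosome, 0 rose and 1 fell in knockout, and 1 rose and 3 fell in wild type, where 6.32% of all tested genes were called in knockout and 22.5% in wild type. By level, 4.8% of the 250 members at 1 to 10 CPM were called in knockout and 18.8% in wild type, and 7.81% of the 64 members at 10 to 100 CPM were called in knockout and 39.1% in wild type. Members whose exons are free of other genes were called in 5.12% of 215 cases in knockout and 24.2% in wild type, and those with exons under another gene in 6.6% of 106 cases in knockout and 20.8% in wild type.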
